A study of Mus musculus with 6 samples.

Results

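The genes examined here were the potassium channel genes of the mouse other than the channels that astrocytes use for potassium buffering. They were chosen by name, as every gene whose symbol starts with Kcn followed by letters and a number, leaving out Kcnj10, Kcnj13, Kcnj16, Kcnk1 and Kcnk2. The rule found 88 genes among the 22086 genes matched in the counts, and used no measured value. Each gene was read from the transcript on which most counts fell in the 6 libraries together. Of the 88 genes, 60 passed the filter on low counts and were tested, 15 had counts but did not pass, and 13 had no count in any library.

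Polysomal mRNAs bound to astroglial ribosomes were purified by TRAP, the immunoprecipitation of ribosomes that carry a tagged ribosomal protein, from the hippocampus of 6 weeks-old mice. All mice carried the transgene Aldh1L1-RPL10aGFP, which expresses the eGFP-tagged ribosomal protein L10a in astrocytes, and 2 floxed alleles of the connexin 43 gene (Cx43 fl/fl). The 3 libraries labelled Littermates (Cx43FL) had these alleles only, and the 3 libraries labelled KO (Cx43KO) had in addition the transgene Gfap Cre, so that connexin 43 is deleted where the GFAP promoter drives the recombinase. The comparison asked how the astroglial polysomal mRNAs differ when connexin 43 is missing from astrocytes. The hippocampus was taken whole. Library numbers run in separate ranges for the genotypes, so a batch effect and an effect of the genotype cannot be told apart.

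Potassium channels let potassium leave or enter the cell and set its membrane potential. Voltage-gated channels (Kv) open upon depolarization and shape the action potential of neurons, calcium-activated channels follow intracellular calcium, inward rectifiers (Kir) hold the membrane near the potassium equilibrium, and two-pore-domain channels (K2P) carry background currents. Auxiliary subunits do not form a pore but modify the opening, the traffic or the level of the channels they bind. In the hippocampus most Kv, KCNQ and calcium-activated channels are best known from neurons, while astrocytes are known for the buffering channels left out here.

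Between 14787303 and 15391214 counts fell on genes in a Cx43FL library, between 16056347 and 34733473 in a Cx43KO library, so that a count of 3 is worth 0.0864 to 0.203 CPM unscaled, CPM being counts scaled to a common library total and, after TMM, the unit used below. The targeted gene, Gja1, was not lower in Cx43KO, with 92.0, 91.7 and 82.3 CPM in Cx43FL against 87.2, 98.4 and 95.1 CPM in Cx43KO. The counts are totals per transcript and do not show whether the deleted part was read, so genotypes are named below as labelled. Astrocyte markers were present in all libraries, their 10 genes summing to 18837 to 22165 CPM in Cx43FL and to 10669.7, 20265 and 30460.3 CPM in Cx43KO. Replicate 1 of Cx43KO stood apart from the others. Its correlation with them over all genes was 0.783 to 0.837, against 0.862 to 0.951 among the remaining libraries. It was the lowest in astrocyte markers, and its 15 neuronal markers summed to 8203 CPM, against 2692 to 3346.6 CPM in Cx43FL and 3446 and 4885 CPM in the other Cx43KO libraries. Its oligodendrocyte markers summed to 2511 CPM, against 559 to 939.9 CPM in the 5 other libraries. Each of these markers was counted, whereas the lymphocyte markers Cd3e and Cd8a had no count in any library. For every result below that rests on this library the value without it is therefore given.

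Potassium channel genes were, as a group, most abundant in this same library. Their summed level was 1344, 1347 and 1507 CPM in replicates 1 to 3 of Cx43FL against 2842, 1706 and 1646 CPM in Cx43KO replicates 1 to 3. The sums of the 3 Cx43KO libraries were thus above those of the 3 Cx43FL libraries, by far more in replicate 1 than in replicates 2 and 3. A sum depends most on the most abundant genes. In Cx43KO replicate 3, Kcnip3 alone had 587 CPM, against 254, 284 and 338 CPM in Cx43FL, so that this sum does not show a rise of the group. Measured gene by gene as the difference of log2(CPM + 0.5) from the Cx43FL mean, the median of the 60 tested genes was 1.22, 0.36 and -0.15 in Cx43KO replicates 1 to 3, and between -0.15 and 0.26 in Cx43FL. Over all 13545 tested genes the same median was within 0.02 of 0 in each library. Replicate 1 had the highest Cx43KO level in 41 of the 60 genes (68.3%), against 38.9% of all tested genes. It was above every Cx43FL library in 37 of the 60 genes (37.9% of all genes), replicate 2 in 21 (28.7%) and replicate 3 in 12 (30.7%). The median deviation of the neuronal markers in Cx43KO replicates 1 to 3 was 1.64, 0.27 and 0.27. Neuronal markers and potassium channel genes were thus both highest in replicate 1, and the part of the one in the other was not tested. Fewer cells of a type and less RNA per cell cannot be told apart in such libraries.

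**Figure D1:**
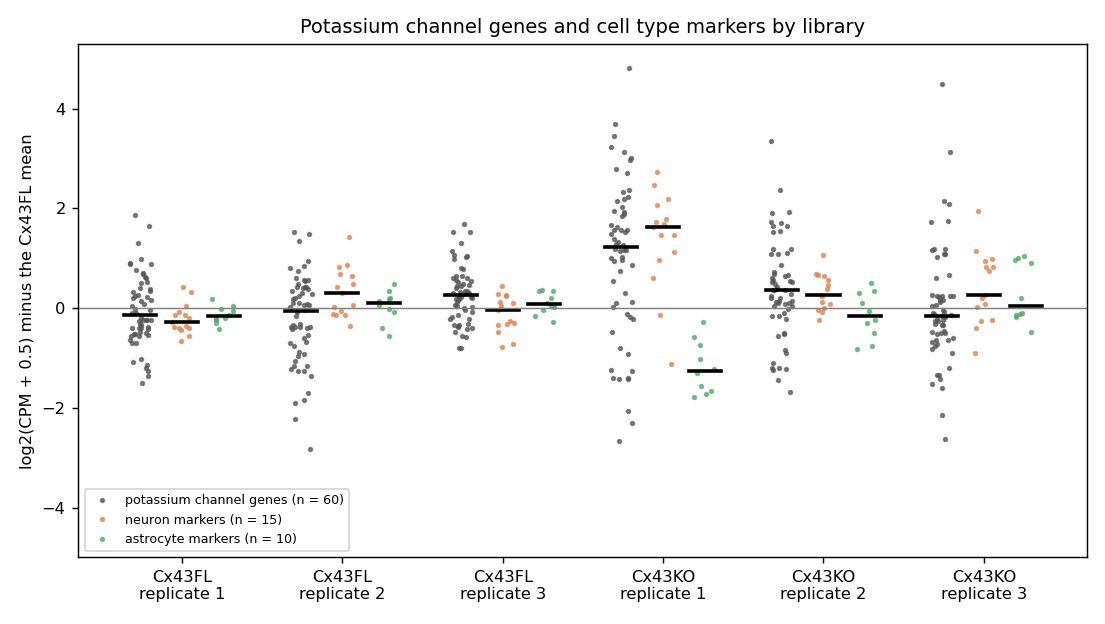
Deviation of each tested potassium channel gene from its Cx43FL mean, as log2(CPM + 0.5), in each of the 6 libraries, with the medians of these genes and of the neuronal and astrocyte marker lists. The median of the channel genes is 1.22 in Cx43KO replicate 1 and lies between -0.15 and 0.36 in the 5 other libraries.

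No potassium channel gene was called as different between genotypes when edgeR's quasi-likelihood p-values were adjusted over all genes by the Benjamini-Hochberg method (0 of 60 genes, the lowest adjusted p being 0.490), against 1 of 13545 genes tested in all (0.00738%). At an unadjusted p below 0.05, 6 genes were higher in Cx43KO (10%), against 5.66% of all tested genes, and 1 gene was lower (1.67%), against 2.67%. The genes with higher values were Kcnh1, Kcnb2, Kcna1, Kcnmb1, Kcng1 and Kcnj4, and the gene with lower values was Kcnn2. The log2 fold change of Cx43KO over Cx43FL was positive in 41 of the 60 genes (68.3%), against 54.4% of all genes. Its median was 0.61, against 0.07 for all genes. Without replicate 1 of Cx43KO the median was -0.0035 over 62 tested genes, 30 of which were positive (48.4%), against 0.00067 and 50.1% for all genes, while 6 genes were higher (5.17% of all genes) and 1 lower (3.44%) at an unadjusted p below 0.05. With 3 libraries per genotype, p-values measure the spread between these libraries only.

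With DESeq2, 2 of 75 genes passed the adjusted threshold, both higher in Cx43KO. They were Kcnh1 (adjusted p = 0.0186 with the prior on fold changes and 0.0135 without it) and Kcnb2 (0.0217 and 0.0102). DESeq2 with the prior called 0.772% of 16836 genes, and without it 1.03%. Every Cx43KO library was above every Cx43FL library in 6 of the 60 genes (10%), namely Kcnb2, Kcne2, Kcnh1, Kcnh5, Kcnj3 and Kcnj4, against 8.08% of all tested genes. Every Cx43KO library was below in 2 genes (3.33%), Kcnj14 and Kcnn2, against 7.45%. Without Cx43KO replicate 1, when fewer libraries have to separate, 14 of 62 genes did not overlap in either direction (26.1% of all genes). For genes that separate with all 6 libraries the exact 2-sided permutation test on log2(CPM + 0.5) gave p = 0.1, the smallest that 3 against 3 libraries allow.

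**Figure D2:**
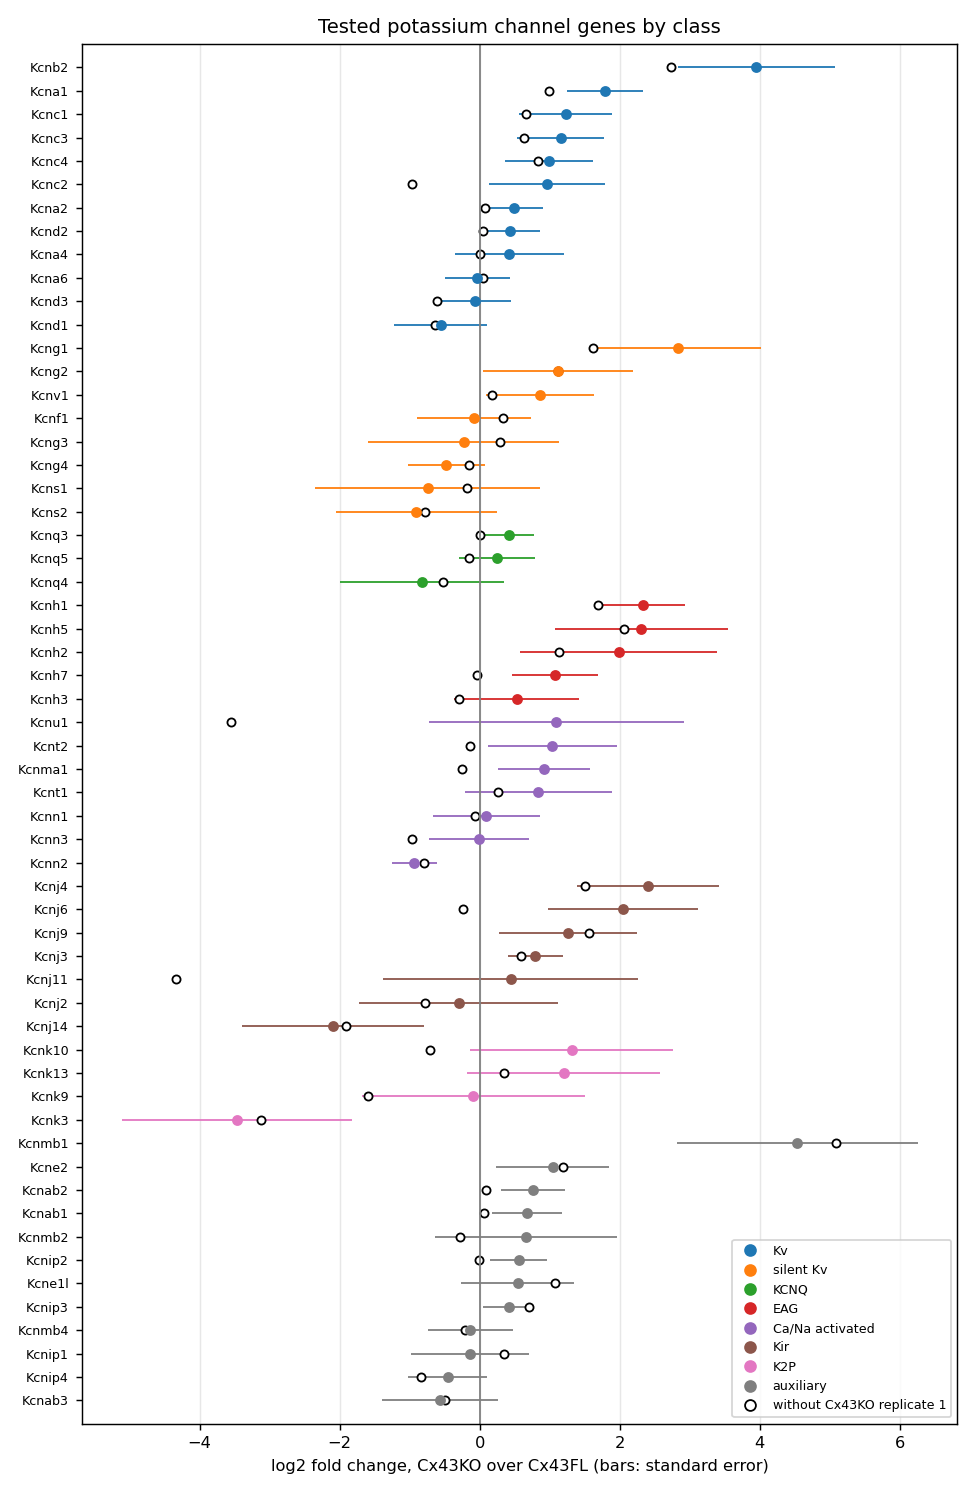
Log2 fold changes of Cx43KO over Cx43FL for 58 of the 60 tested potassium channel genes by class, with all 6 libraries (filled points, with standard errors) and without Cx43KO replicate 1 (open points). The median over the 60 genes moves from 0.61 to -0.0035 when this library is left out. Of the 60 genes, 15 then turn from positive to negative and 4 from negative to positive. The 7 genes with an unadjusted p below 0.05 keep their side.

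Levels were compared between genes per kb of transcript. The most abundant in both genotypes was Kcnip3, which encodes KChIP3, a calcium-binding subunit of Kv4 channels also known as the transcriptional repressor DREAM, with 107 CPM per kb in Cx43FL and 143 in Cx43KO. The order below it differed between genotypes. In Cx43FL it was followed by Kcnn2 at 30.8 CPM per kb, by Kcnab2 and Kcnip2, further auxiliary subunits, at 20.7 and 20.3, and by Kcnq3 at 15.5 and Kcne2 at 14.7, with Kcna1 at 9.83. In Cx43KO, Kcnab2 was at 35.1 CPM per kb, Kcna1 at 34.1, Kcne2 at 30.4, Kcnip2 at 29.9, Kcnq3 at 20.9 and Kcnn2 at 16.2. For Kcnab2, Kcna1, Kcnip2 and Kcnq3 the highest Cx43KO library was replicate 1. Kcnip2 was read from a transcript annotated with a retained intron, and 23 of the 43 genes with several counted transcripts had a second transcript with at least 90% of the count of the one used.

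**Figure D3:**
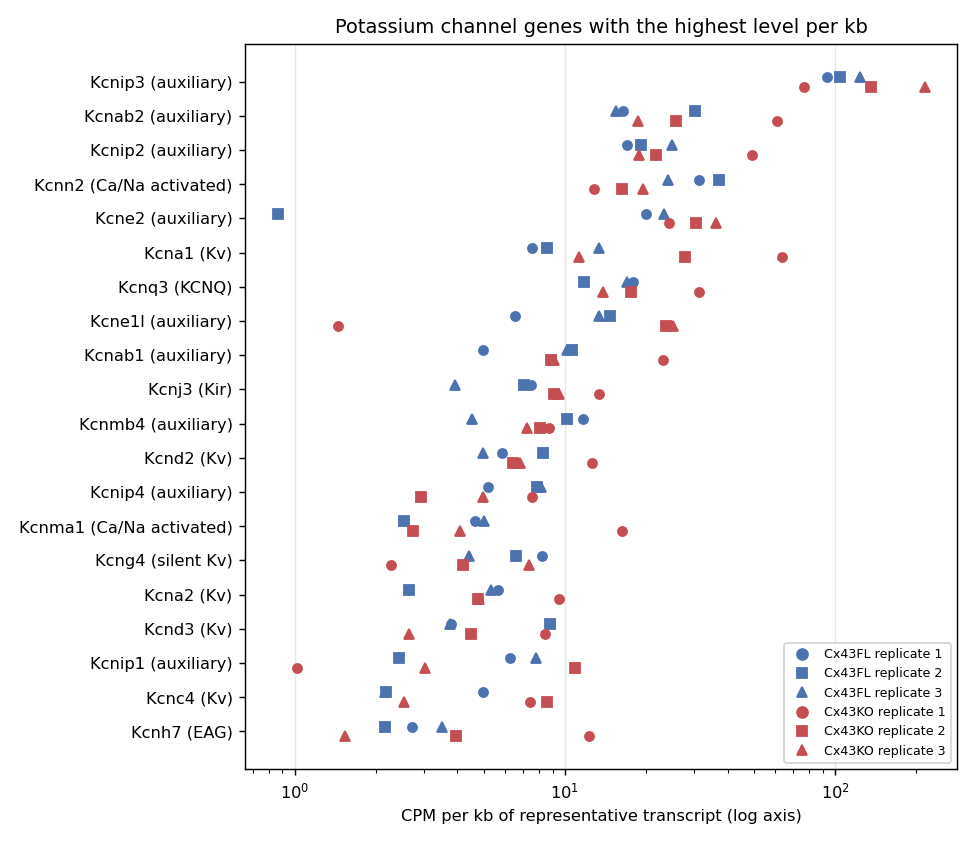
Level in each of the 6 libraries, in CPM per kb of transcript on a log axis, of 20 potassium channel genes among those with the highest mean level, with their class in brackets. Kcnip3 is the highest gene in both genotypes, and Cx43KO replicate 1 is the highest library for genes such as Kcna1, Kcnab2 and Kcnma1 and the lowest for Kcnn2 and Kcne1l.

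The Kv class holds the pore-forming subunits of the Kv1 to Kv4 families. Of its 17 genes, 13 were tested, 10 with a positive and 3 with a negative log2 fold change, and the class median was 0.96 with all libraries and 0.08 without Cx43KO replicate 1. The class summed to 252, 252 and 294 CPM in Cx43FL against 807, 366 and 269 CPM in Cx43KO. Kcna1, which encodes the axonal channel Kv1.1, had 30.5, 34.6 and 53.7 CPM in Cx43FL against 255, 112 and 45.6 CPM in Cx43KO. Its Cx43KO replicates 1 and 2 were above every Cx43FL library while replicate 3 was within their range. For Kcna1 the log2 fold change was 1.80 (SE 0.54, edgeR adjusted p = 0.494), and 0.99 without replicate 1. Kcna2, whose product Kv1.2 assembles with Kv1.1, had 65.2, 30.6 and 61.7 CPM in Cx43FL against 110.4, 55.3 and 55.4 CPM in Cx43KO. Only replicate 1 of Cx43KO left the Cx43FL range. Kcnd2, which encodes Kv4.2, the dendritic A-type channel of hippocampal pyramidal neurons, had 30.04, 42.6 and 25.6 CPM in Cx43FL against 65.1, 33.0 and 35.1 CPM in Cx43KO. Again replicate 1 of Cx43KO was the only library above the Cx43FL range. The log2 fold changes of Kcna2 and Kcnd2, 0.49 (SE 0.42) and 0.44 (SE 0.42), were 0.08 and 0.05 without that library.

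Kcnb2, which encodes the delayed rectifier Kv2.2, was barely counted in Cx43FL. It lies on chromosome 1 from 15287254 to 15723750 (GRCm38, plus strand) and was read from a transcript of 2 exons. It was counted 35, 2 and 17 times in Cx43FL against 635, 98 and 385 times in Cx43KO, or 2.31, 0.133 and 1.11 CPM against 39.4, 3.94 and 11.9 CPM. All Cx43KO libraries were above all Cx43FL libraries, and replicate 1 was the highest. The log2 fold change was 3.95 (SE 1.13, edgeR adjusted p = 0.490) and stayed between 2.74 and 4.86 when 1 library was left out. Its adjusted p over the other settings was 0.0102 to 0.934. Kv3 genes, which serve fast firing, were chosen after their values were seen. Their log2 fold changes were positive in all 4 members, from 0.96 for Kcnc2 to 1.23 for Kcnc1, but Kcnc2 was at -0.96 without replicate 1 of Cx43KO.

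Silent Kv subunits form no channel alone and modify Kv2 channels. Of 10 genes, 8 were tested, 3 positive and 5 negative, with a median of -0.16, or 0.18 without Cx43KO replicate 1. Kcng4 (Kv6.4) was the most abundant per length, with 31.2, 25.1 and 16.7 CPM in Cx43FL against 8.63, 16.0 and 27.9 CPM in Cx43KO, the genotypes overlapping. Kcng1 (Kv6.1), on chromosome 2 from 168260117 to 168281736 (GRCm38, minus strand), had 19, 32 and 45 counts in Cx43FL against 517, 312 and 12 counts in Cx43KO. Replicates 1 and 2 were above and replicate 3 below every Cx43FL library. Kcng1 thus had a log2 fold change of 2.83 (SE 1.19, edgeR adjusted p = 0.575) and 1.61 without replicate 1.

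KCNQ channels carry the M-current, which limits repetitive firing. Of 5 genes, 4 were tested, 3 positive and 1 negative, with a median log2 fold change of 0.34, or -0.09 without Cx43KO replicate 1. Kcnq3 was the most abundant of them per length, with 211, 139 and 201 CPM in Cx43FL against 369, 207 and 163 CPM in Cx43KO. The genotypes overlapped, replicate 1 being the highest and replicate 3 the lowest of the Cx43KO libraries. Its log2 fold change of 0.43 (SE 0.35) was 0.01 without replicate 1.

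The EAG class had the highest median, with all 5 tested genes positive and a median log2 fold change of 1.98, or 1.13 without Cx43KO replicate 1, where 3 of 5 were positive. Kcnh1, which encodes the voltage-gated channel Kv10.1 (EAG1), is on a list that the study chose on these same libraries, so that its direction is not independent evidence. It lies on chromosome 1 from 192190774 to 192510159 (GRCm38, plus strand). Kcnh1 had 7.51, 3.71 and 10.4 CPM in Cx43FL against 62.1, 23.3 and 23.3 CPM in Cx43KO. The lowest Cx43KO library was above the highest Cx43FL library. Its mean was 7.21 ± 3.36 CPM in Cx43FL against 36.3 ± 22.4 CPM in Cx43KO (SD, 3 libraries each). The log2 fold change was 2.33 (SE 0.61, edgeR adjusted p = 0.490), 1.69 without replicate 1 of Cx43KO, and 1.69 to 2.69 with any 1 library left out. Its adjusted p over the other settings was 0.0135 to 0.934. Kcnh5 (EAG2), chosen after its values were seen, also separated, with 8, 2 and 11 counts in Cx43FL against 49, 60 and 47 in Cx43KO (log2 fold change 2.31, SE 1.23). Kcnh7 (ERG3), the most abundant of the class, did not separate, with 36.2, 28.9 and 46.8 CPM in Cx43FL against 163, 52.5 and 20.4 CPM in Cx43KO. Its log2 fold change of 1.08 (SE 0.61) was -0.03 without replicate 1, and 5.22% of its transcript overlaps exons of Gca on the opposite strand.

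Among calcium- and sodium-activated channels, Kcnn2 was the gene with an unadjusted p below 0.05, with lower levels in Cx43KO. It encodes SK2, a small-conductance channel that follows calcium entry and contributes to the after-hyperpolarization of neurons, and lies on chromosome 18 from 45268860 to 45686024 (GRCm38, plus strand). Kcnn2 had 116, 136 and 88.8 CPM in Cx43FL against 47.1, 59.8 and 71.4 CPM in Cx43KO. The genotypes did not overlap, and replicate 1 of Cx43KO, which was the highest for most channel genes, was the lowest for this one. The mean was 114 ± 23.8 CPM in Cx43FL against 59.5 ± 12.2 CPM in Cx43KO (SD, 3 libraries each). The log2 fold change was -0.93 (SE 0.32, edgeR adjusted p = 0.540), -0.80 without replicate 1, and between -1.09 and -0.79 with any 1 library left out. Of its transcript, 7.71% and 8.77% overlap exons of A330093E20Rik and AC121957.1 on the opposite strand, and whether counting used the strand is not given in the sources used here. Kcnma1, which encodes the large-conductance BK channel, had 21.4, 11.7 and 23.1 CPM in Cx43FL against 74.99, 12.6 and 18.8 CPM in Cx43KO. Its log2 fold change of 0.92 (SE 0.66) was -0.25 without replicate 1. The class had 5 of 7 tested genes positive and a median of 0.84, and without that library 1 of 7 positive and a median of -0.25.

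**Figure D4:**
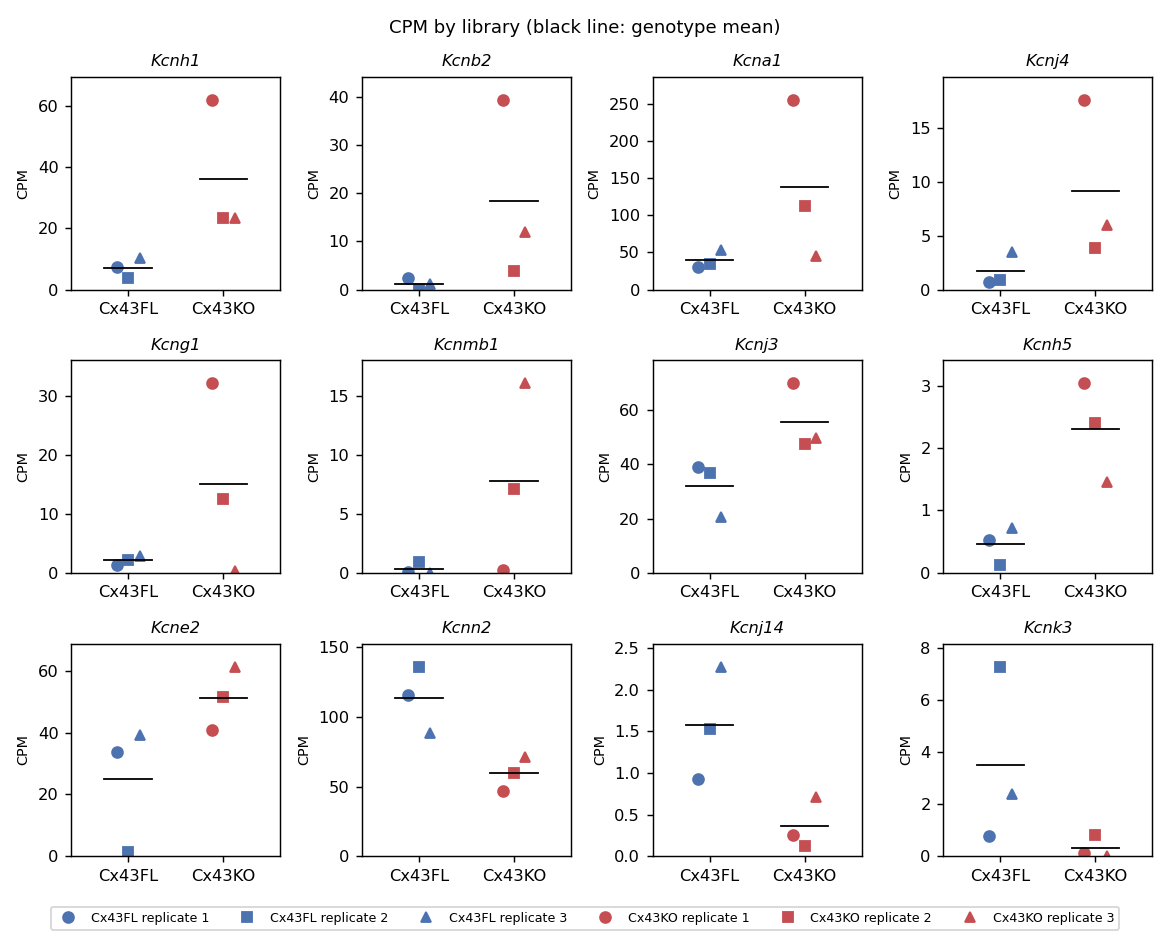
Level in each library, in CPM from 0, of 12 potassium channel genes: the 7 with an unadjusted p below 0.05, the further ones without overlap between genotypes and Kcnk3, the black line being the mean of 3 libraries. All Cx43KO points of Kcnh1, Kcnb2, Kcnj4, Kcnj3, Kcnh5 and Kcne2 lie above and all those of Kcnn2 and Kcnj14 below the Cx43FL points, whereas Kcna1, Kcnmb1, Kcng1 and Kcnk3 overlap.

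Of 12 Kir genes, 7 were tested, 5 positive and 2 negative, with a median of 0.79 that became -0.24 without Cx43KO replicate 1. Kcnj3 (GIRK1), a subunit of the channels opened by G protein-coupled receptors, had 39.2, 36.8 and 20.5 CPM in Cx43FL against 70.0, 47.5 and 49.6 CPM in Cx43KO. Its genotypes did not overlap. Kcnj3 had a log2 fold change of 0.79 (SE 0.39, edgeR adjusted p = 0.603) and 0.59 without replicate 1, and 31.1% of its transcript overlaps exons of Gm26794 on the opposite strand. Kcnj6 (GIRK2), its partner, had 1.32, 6.17 and 3.71 CPM in Cx43FL against 39.98, 3.42 and 2.93 CPM in Cx43KO. Only replicate 1 of Cx43KO was high, and the log2 fold change of 2.04 (SE 1.07) became -0.24 without it. Kcnj4 (Kir2.3), a strong inward rectifier on chromosome 15 from 79483714 to 79505241 (GRCm38, minus strand), had 11, 14 and 54 counts in Cx43FL against 284, 96 and 193 counts in Cx43KO. In CPM the lowest Cx43KO value, 3.86, was just above the highest Cx43FL value, 3.52. Its log2 fold change was 2.402 (SE 1.02, edgeR adjusted p = 0.581) and 1.504 without replicate 1. Kcnj14 (Kir2.4), chosen after its values were seen, had 14, 23 and 35 counts in Cx43FL against 4, 3 and 23 counts in Cx43KO, which in CPM did not overlap (log2 fold change -2.10, SE 1.29).

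K2P genes were the class with the fewest genes passing the filter for its size, with 4 of 12 tested and summed levels of 2.38 to 16.2 CPM per library. Kcnk10 (TREK-2) had 30, 5 and 10 counts in Cx43FL against 100, 3 and 35 counts in Cx43KO, with no separation. Its log2 fold change of 1.31 (SE 1.46) was -0.71 without replicate 1 of Cx43KO. Kcnk3 (TASK-1), an acid-sensitive background channel, had 12, 110 and 37 counts in Cx43FL against 2, 20 and 0 in Cx43KO (log2 fold change -3.47, SE 1.65, edgeR adjusted p = 0.600). This value was -2.35 without Cx43FL replicate 2 and -5.87 without Cx43KO replicate 2, the ends of its range when 1 library was left out. Replicate 2 of Cx43KO lay within the Cx43FL range, and 6.01% of the transcript overlaps exons of Gm9899 on the opposite strand. Kcnk7 was not tested and had 11, 32 and 0 counts in Cx43FL against 0, 0 and 4 counts in Cx43KO. Kcnk13 (THIK-1), known from microglia and chosen after its values were seen, had 6, 16 and 5 counts in Cx43FL against 42, 35 and 4 counts in Cx43KO. The 8 microglial markers summed to 27.7 to 49.5 CPM in Cx43FL and to 124, 77.1 and 113 CPM in Cx43KO, and their part in the values of Kcnk13 was not tested.

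Auxiliary subunits had 12 of 16 genes tested, 8 positive and 4 negative, with a median of 0.55, or 0.08 without Cx43KO replicate 1. Kcnip3 had 254, 284 and 338 CPM in Cx43FL against 209, 372 and 587 CPM in Cx43KO. Unlike most channel genes it was lowest in Cx43KO replicate 1, as were the astrocyte markers, and its log2 fold change of 0.42 (SE 0.36) was 0.71 without that library and -0.0064 without replicate 3. Kcnab2, which encodes the Kv1 partner Kvβ2, had 64.5, 118 and 60.6 CPM in Cx43FL against 239, 101 and 72.9 CPM in Cx43KO (log2 fold change 0.76, SE 0.46, and 0.09 without replicate 1). Kcnip2 (KChIP2) had 52.7, 59.4 and 77.4 CPM in Cx43FL against 154, 67.5 and 58.6 CPM in Cx43KO (0.56, SE 0.41, and -0.0067 without replicate 1). The higher values of Kcnab2 and Kcnip2 in Cx43KO were thus those of 1 library.

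Kcnmb1 encodes the BK channel subunit β1, best known from smooth muscle, and lies on chromosome 11 from 33963013 to 33973641 (GRCm38, plus strand), within the span of Kcnip1 on the other strand. It had 1, 14 and 0 counts in Cx43FL against 4, 176 and 521 counts in Cx43KO. Here replicates 2 and 3 of Cx43KO were high and replicate 1 was within the Cx43FL range. For Kcnmb1 the log2 fold change was 4.54 (SE 1.72, edgeR adjusted p = 0.554), ranging from 3.44 to 7.64 when 1 library was left out. Markers of endothelial and mural cells summed to 28.6 to 33.2 CPM in Cx43FL and to 95.8, 18.8 and 75.4 CPM in Cx43KO. Among them Acta2, the actin gene of smooth muscle, had 0.725, 0.531 and 5.01 CPM in Cx43FL against 4.90, 1.25 and 22.0 CPM in Cx43KO. The part of these cells in the values of Kcnmb1 was not tested. Kcne2, a subunit known from the choroid plexus and chosen after its values were seen, had 33.9, 1.46 and 39.3 CPM in Cx43FL against 41.0, 51.5 and 61.5 CPM in Cx43KO (log2 fold change 1.04, SE 0.81). Its low Cx43FL replicate 2 was also the lowest in Ttr, the transthyretin gene of the choroid plexus, which had 9593, 450.1 and 14872 CPM in Cx43FL against 32150.2, 25644 and 21438 CPM in Cx43KO. The 4 choroid plexus markers together summed to 456 to 15237 CPM in Cx43FL and to 21941 to 32724 CPM in Cx43KO, and their part in the values of Kcne2 was not tested.

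Promoter windows of 300 bases, from 250 before to 50 after the start of the gene in RefSeq (GRCm38.p6), were found for 63 of the 88 genes. For each gene the window nearest the start of the transcript used was taken. A window may still belong to another start, as its start lay 200901 bases away for Kcnma1, 22013 for Kcnh2 and 21492 for Kcnj1. Kcna1, Kcnb2, Kcng1 and Kcnn2 had no entry. The windows of Kcnh1, Kcnmb1 and Kcnj4 are printed 5′ to 3′ on the strand of the gene. They are the 3 of the 7 genes with an unadjusted p below 0.05 that had an entry. The GC content of these windows was 66.0%, 49.7% and 76.0%. Capitals mark the GC box GGGCGG or, on the other strand, CCGCCC. That of Kcnh1 is chr1:192190527-192190826 (plus strand), that of Kcnmb1 chr11:33962763-33963062 (plus strand) and that of Kcnj4 chr15:79505192-79505491 (minus strand).
Kcnh1: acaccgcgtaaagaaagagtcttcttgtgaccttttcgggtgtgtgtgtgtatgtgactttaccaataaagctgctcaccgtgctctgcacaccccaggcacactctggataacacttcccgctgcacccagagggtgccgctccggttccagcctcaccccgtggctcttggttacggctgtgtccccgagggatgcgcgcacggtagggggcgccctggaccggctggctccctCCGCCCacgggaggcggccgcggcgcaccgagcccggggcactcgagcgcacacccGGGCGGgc
Kcnmb1: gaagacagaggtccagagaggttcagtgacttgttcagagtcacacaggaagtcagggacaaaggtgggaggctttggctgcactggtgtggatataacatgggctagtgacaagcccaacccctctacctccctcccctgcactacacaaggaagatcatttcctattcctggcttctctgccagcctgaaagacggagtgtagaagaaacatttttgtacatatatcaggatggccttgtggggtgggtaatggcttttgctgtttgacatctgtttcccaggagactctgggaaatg
Kcnj4: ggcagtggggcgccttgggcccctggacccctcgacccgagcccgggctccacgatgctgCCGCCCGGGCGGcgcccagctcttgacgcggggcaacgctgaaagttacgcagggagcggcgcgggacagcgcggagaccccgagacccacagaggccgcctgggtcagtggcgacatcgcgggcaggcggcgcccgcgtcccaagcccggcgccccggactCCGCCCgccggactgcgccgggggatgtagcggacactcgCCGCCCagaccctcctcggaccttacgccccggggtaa

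The window of Kcnmb1 holds no GC box, unlike those of Kcnh1 and Kcnj4. On both strands, 5 motifs were searched. The GC box was found in 36 of the 63 windows (57.1%), against 36.3% of 27025 RefSeq promoters of the same length, and the TATA box TATAAA in 2 (3.17%), against 14.1%. The E-box CACGTG was in 6 windows (9.52%), against 7.22%. The element RE1, bound by the repressor of neuronal genes REST, was searched by its left part TTCAGCACC, found in 1 window (1.59%, against 0.359%). The cAMP response element TGACGTCA was found in 0 windows, against 1.84%. Of the 39 windows that belong to tested genes, 23 held the GC box, 1 the TATA box, 2 the E-box and 0 the part of RE1. The median GC content of the windows was 62.0%, against 52.7% for all promoters. These matches describe letters in a window, not sites bound by a factor.

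Other genes of potassium channel complexes and related channels, taken from a list of 23 that also holds the buffering channels, were measured in the same fit. Of the 18 that were tested, the log2 fold change was above 0 in 17 and below 0 in 1, and its median was 1.06. At an unadjusted p below 0.05, 6 were higher (5.66% of all genes) and 0 lower (2.67%), and 0 were called by edgeR after adjustment, the lowest adjusted p being 0.540. The largest positive value was that of Abcc9, which encodes the sulfonylurea receptor SUR2 of KATP channels, with 0.395, 0.332 and 2.15 CPM in Cx43FL against 5.53, 9.85 and 6.58 CPM in Cx43KO (log2 fold change 2.92, SE 1.08). The negative one was that of the buffering channel Kcnj16 (Kir5.1), with 137, 113 and 109.9 CPM in Cx43FL against 18.3, 39.2 and 183 CPM in Cx43KO (log2 fold change -0.58, SE 0.65). Kcnj13 (Kir7.1), known from the choroid plexus, had 34.6, 0.133 and 26.4 CPM in Cx43FL against 104, 45.6 and 102 CPM in Cx43KO (log2 fold change 2.04, SE 1.05). It was lowest in the same Cx43FL library as Ttr, and the part of choroid plexus in its values was not tested. The remaining buffering channels had log2 fold changes of 0.55 (Kcnj10, SE 0.31), 0.053 (Kcnk1, SE 0.29) and 0.0044 (Kcnk2, SE 0.30).

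At the low end, the 13 genes with no count in any library were Kcna7, Kcna10, Kcne1, Kcne3, Kcnj5, Kcnj8, Kcnj15, Kcnk15, Kcnk18, Kcnmb3, Kcnn4, Kcnq1 and Kcnv2. A further 10 genes had 1 to 30 counts over all 6 libraries. At 3 counts or more, 57 to 63 of the 88 genes were counted in a Cx43FL library and 62 to 65 in a Cx43KO library, so that the ranges of both genotypes overlapped. Opposite-strand exons overlap 19 of the 88 genes, up to 50.7% of the transcript of Kcnmb4.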

How the data were processed

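Polysomal mRNAs were measured in 3 Cx43FL and 3 Cx43KO libraries of mouse hippocampus, grouped by the sample titles. The authors filtered the reads, aligned them to mm10 (STAR), discarded multi-mapped reads, counted with HTSeq-count (HTSeq 0.5.3 per the labels) and deposited raw counts per Ensembl transcript. Libraries were made with the NuGEN Ovation kit. The test had been planned for counts per gene, and a gene is read here from its most counted transcript. Of 75466 transcripts, 73157 were matched to GENCODE on the same build and 2309, with 1.60% to 1.78% of the counts, were left out.

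Genotypes were compared over all genes with edgeR 4.0.16 (TMM, filterByExpr, quasi-likelihood F test, Benjamini-Hochberg) in R 4.3.3. A call needed an adjusted p below 0.05 and a mean normalized count above 50. The SE was taken as the size of the fold change (log2) over the root of F. Alternatives were DESeq2 1.42.0 with and without its prior, DESeq2 size factors, other count filters, summed transcripts, a replicate block and leaving out each library. Named genes were the most abundant per kb of each class (3 for Kv, Kir, K2P and auxiliary genes, 2 for the others), those called by edgeR or DESeq2, those with an unadjusted p below 0.05, and Kcnh1. Others are marked as chosen after their values were seen. The members and gene lists were chosen with earlier results of these data known. Results for some genes are not reported here. The value of 3 counts covers counting error only.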

Additional observations from a re-analysis of the deposited data

Results flagged for a closer look

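Kcnk6, which encodes the two-pore-domain channel TWIK-2, did not pass the filter on low counts and is outside the comparison. It was chosen after its counts were seen, which in every Cx43KO library were above those in every Cx43FL library. Kcnk6 had 0, 1 and 1 counts in replicates 1 to 3 of Cx43FL against 66, 25 and 7 counts in Cx43KO replicates 1 to 3. These counts are not scaled for depth, and Cx43KO replicate 3 was the deepest library. Without the filter, scaled libraries of the genotypes did not overlap, in either direction, in 9 of 75 genes (12%), against 13.6% of 16836 genes. The 3 Cx43FL libraries are under the floor of 3 counts, and replicate 1 of Cx43KO, the library with the highest neuronal and oligodendrocyte markers, had the highest count. The part of these markers in the counts of Kcnk6 was not tested.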

How the results depend on the processing

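The number of called potassium channel genes was 0 in every edgeR setting tried and 2 with DESeq2, with or without the prior. The cause was not tested. Genes higher at an unadjusted p below 0.05 numbered 6, and 3 to 12 when 1 library was left out (3 without Cx43FL replicate 1, with 3.38% of all genes, and 12 without Cx43KO replicate 3, with 8.72%). They numbered 4 of 61 with summed transcripts (6.56%, against 5.42% of all genes). With at least 10 counts in every library they numbered 4 of 43 (9.3%, against 6.01%). With DESeq2 they numbered 8 of 75 (10.7%), against 6.55% of all genes with the prior and 7.11% without it. Lower genes numbered 1, and 2 with DESeq2 with the prior (3.09% of all genes), 2 without the prior (3.52%), 2 with the replicate block (2.22%) and 0 to 2 with 1 library left out (0 without Cx43FL replicate 2, with 1.3% of all genes, and 2 without Cx43FL replicate 3, Cx43KO replicate 2 or Cx43KO replicate 3, with 2.14%, 2.69% and 5.17%). The genes whose libraries do not overlap numbered 8 (13.3%, against 15.5% of all genes), or 5 of 43 with at least 10 counts in every library (11.6%, against 15.9%). With 1 library left out, when fewer libraries have to separate, they numbered 12 to 21, or 19.7% to 33.3% of the tested genes of the group (12 without Cx43KO replicate 2 and 21 without Cx43KO replicate 3, against 27.2% and 31.8% of all genes). The median log2 fold change of 0.61 was 0.31 to 0.61 in the other settings, 0.49 with the replicate block, and -0.0035 to 0.81 with 1 library left out, the lowest without Cx43KO replicate 1. Same-numbered libraries did not deviate together (correlations of 0.0016, -0.025 and -0.041), so the replicate block, with 5 higher (4.33% of all genes) and 2 lower genes, does not pair them. Without Cx43KO replicate 1 the log2 fold change turned negative for Kcnj6 (-0.24 to 2.60 with 1 library left out), Kcnk10 (-0.71 to 2.29), Kcnip2 (-0.0067 to 0.81), Kcnh7 (-0.035 to 1.53) and Kcnma1 (-0.25 to 1.32), and without Cx43KO replicate 3 for Kcnip3 (-0.0064 to 0.71). The other 14 of the 20 named genes that could be fitted kept their sign in all settings. Genes with few counts in Cx43FL, such as Kcnmb1 and Kcnb2, are limited by depth, and 3 libraries per genotype cannot reach p below 0.1 in a permutation test.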
